A study of Sus scrofa with 3 samples.

Results

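Interferon receptors and the genes that respond to interferon were examined in mesenchymal stem cells (MSC), fibroblast-like progenitor cells, grown from the adipose tissue of pigs. The members were the entries of the deposited gene table that carry 1 of 34 names of this gene group, of which 31 were found among 30477 genes. IFNAR2 and IFI6 are unnamed in the table and were found by Ensembl gene ID, so their values stand beside those of the 31 and are not counted with them. IFIT3 was not matched. By its title the series concerns transplanted MSC and vein stenosis in arteriovenous fistulas, surgical joins of an artery and a vein made for hemodialysis. All 3 samples form a single group of MSC cultures from adult pigs, kept in advanced MEM with human platelet lysate, and the labels name no interferon, virus or other stimulus, no strain and no genotype. They do not tie the cultures to animals, so the spread between these samples may be technical. P-values rest on that spread and, in limma, also on a variance drawn from all genes tested. They cannot be read as variation between animals. The cultures are called 1, 2 and 3 as numbered in the labels.

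Interferons are secreted proteins that warn cells of infection. Type I interferons (the alpha, beta and related kinds) bind IFNAR1 and IFNAR2, and interferon gamma, the type II interferon, binds IFNGR1 and IFNGR2. The kinases JAK1, TYK2 and JAK2, which sit on these receptors, then activate STAT proteins. A complex that holds STAT2 and IRF9 switches on antiviral genes such as MX1, the IFIT and OAS genes and ISG15, while many cells also keep a low level of these genes without any stimulus.

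Levels are given in RPKM, the reads of a gene divided by the length of its model in kilobases and scaled to the reads of its culture, and are comparable between genes per length. They rest on 51788677, 62248183 and 64774044 reads in cultures 1, 2 and 3. Genes with a read numbered 28310, 28395 and 24503, so culture 3 had the fewest although it had the most reads. Protein-coding genes took 70.3% of the reads in culture 1, 88.6% in culture 2 and 88.8% in culture 3, and small RNA genes 28.3%, 9.12% and 8.36%, so the library of culture 1 stood apart in composition. All 7 adipose MSC markers lay above 1 RPKM, at means of 5.81 to 203 RPKM, where 30.6% of all genes did (limma test described below). Of the 7 leukocyte and macrophage markers 6 lay below it, where 60.8% of all genes did. So did all 6 measured lymphocyte and dendritic cell markers and 3 of 4 endothelial markers. The exceptions were CD14 (2.12 ± 0.289 RPKM, SD, n = 3) and PECAM1, whose span overlaps the abundant DDX5. The summed level of the leukocyte list was 2.83, 2.56 and 3.90 RPKM in cultures 1, 2 and 3, that of the lymphocyte list 0.376, 0.366 and 0.022, and that of the endothelial list 1.60, 3.16 and 1.56. Within the leukocyte list ITGAM, an integrin chain of myeloid cells, had 0.098, 0.143 and 1.21 RPKM and CD68 0.135, 0.269 and 0.313, both highest in culture 3. PTPRC, the common leukocyte antigen, was lowest there, with 0.103, 0.053 and 0.017. Also lowest in culture 3 were CD163 (0.063, 0.046 and 0.004), CSF1R (0.012, 0.026 and 0.006) and AIF1 (0.133, 0.244 and 0.075). CD14 had 2.29, 1.78 and 2.28 RPKM. The part of other cells in the levels below was not tested.

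**Figure D1:**
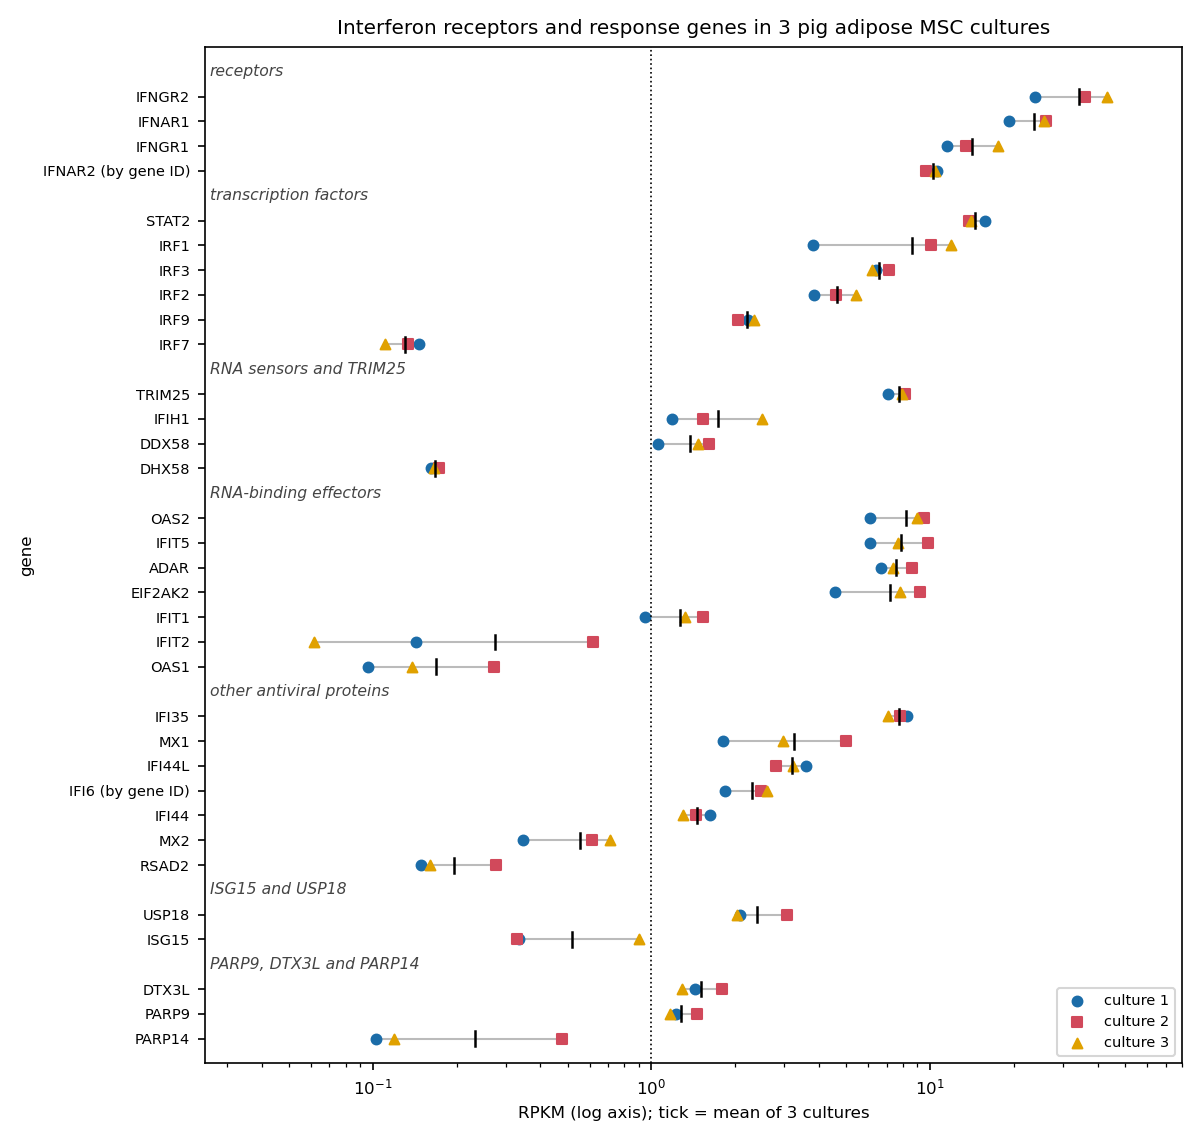
RPKM of each gene in cultures 1, 2 and 3 (log axis), grouped by role, with a tick at the mean of the 3 cultures and a dotted line at 1 RPKM. The receptor chains span 9.68 to 43.1 RPKM, while 8 members lie left of the dotted line in each culture.

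IFNGR2, IFNAR1, STAT2 and IFNGR1 were the most abundant members, in that order of mean RPKM, and the other response genes ranged from moderate to barely detected. In limma's moderated test of the mean log2(RPKM + 0.5) against 1 RPKM, with Benjamini-Hochberg adjustment over all 29479 genes with a read and a threshold of 0.05, 17 of the 31 members lay above 1 RPKM, where 30.6% of all genes did. Below it lay 8 members, where 60.8% of all genes did, and 6 members were not decided. Shares of all genes, here and elsewhere, also count entries that do not code for proteins, whereas all 31 members do. Restricted to the 19935 protein-coding entries that had reads, the same test put 8372 over 1 RPKM and 9523 under it. The members thus stand out less against this closer background. The median member had a mean of 2.39 RPKM, against 0.128 for all genes with a read and 0.795 for protein-coding genes with a read. In bulk RNA a level shared by all cells and a higher level in fewer cells cannot be told apart, nor fewer cells and less RNA per cell.

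**Figure D2:**
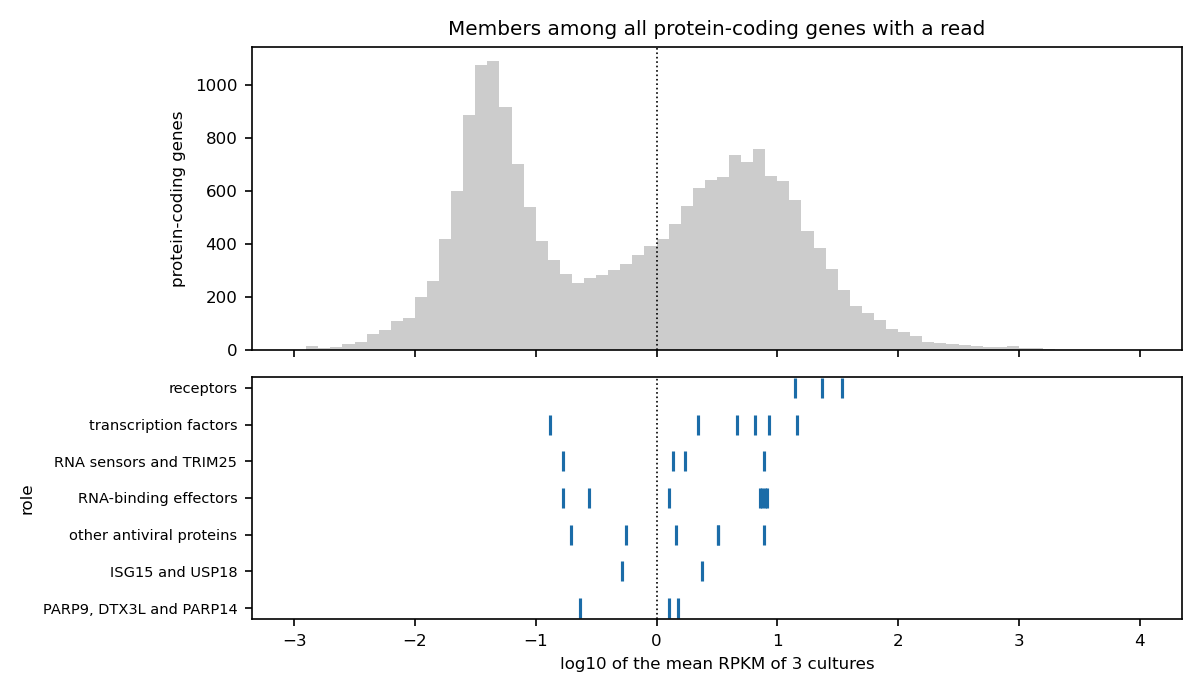
Histogram of the mean RPKM of all protein-coding genes with a read (log10 scale, upper panel) and the mean RPKM of each member by role (lower panel), with a dotted line at 1 RPKM. The 3 receptors found by name lie between 14.1 and 34.2 RPKM, to the right of the upper peak of the histogram, and IRF7, DHX58 and OAS1 lie between 0.130 and 0.169 RPKM, in the dip between its peaks.

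All chains of the type I and type II receptors were expressed in every culture. IFNGR2, the signalling chain of the interferon gamma receptor (ENSSSCG00000034378, chromosome 13, 197007303 to 197035604, susScr11), had 23.7, 35.8 and 43.1 RPKM in cultures 1, 2 and 3, a mean of 34.2 ± 9.79 (SD, n = 3). It was lowest in culture 1 and stood above 95.3% of protein-coding genes with a read. IFNAR1 (ENSSSCG00000033115, chromosome 13, 196925704 to 196952239) had 19.2, 26.0 and 25.5 RPKM, with cultures 2 and 3 nearly level. IFNGR1, the chain that binds interferon gamma (ENSSSCG00000004156, chromosome 1, 27037165 to 27061093), had 11.5, 13.4 and 17.5 RPKM. IFNAR2, the type I chain that binds with higher affinity, had 10.6, 9.68 and 10.4 RPKM, a range of 1.09-fold that was 1.38-fold with protein-coding reads as the base, with a mean of 10.2 ± 0.476 (SD, n = 3). All 4 chains were above 1 RPKM in 3 of 3 cultures, with adjusted p-values in limma of at most 3.8e-13, that of IFNAR2.

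The order IFNGR2, IFNAR1, IFNGR1, IFNAR2 held within each culture. Such ratios within a library do not depend on how the libraries are scaled, although they do depend on the gene models. The IFNAR2 entry covers 58.4% of the span that the RefSeq annotation gives IFNAR2, while the entries of the other chains cover 99.9% to 100% of theirs. The place of IFNAR2 in the order thus rests on a partial span, whose part in its level was not tested. IFNGR2 exceeded IFNGR1 by 2.06-fold, 2.67-fold and 2.47-fold in cultures 1, 2 and 3, and IFNAR1 exceeded IFNAR2 by 1.81-fold, 2.68-fold and 2.46-fold. For neighbours in the order, IFNGR2 over IFNAR1 was 1.23 to 1.69, IFNAR1 over IFNGR1 1.46 to 1.94 and IFNGR1 over IFNAR2 1.09 to 1.68. For each of these ratios an exact permutation test over sign flips, two-sided, had p = 0.25, the smallest that 3 cultures allow, so none could pass 0.05. IFNAR2, IFNAR1 and IFNGR2 lie within 234 kb of chromosome 13 together with IL10RB, a chain of the type III interferon and interleukin 10 receptors, which had 5.38, 3.36 and 5.13 RPKM. IFNLR1, the other chain of the type III receptor, had 0.035, 0.018 and 0.007 RPKM (limma, below 1 RPKM, adjusted p = 4.4e-32).

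The interferon genes themselves were barely detected. The table names 22 ligand entries, 20 of them on chromosome 1 between 201221665 and 201851495. Of these 22, 4 had no read in any culture and the other 18 lay below 1 RPKM in limma, where 60.8% of all genes did. In culture 1 the 22 entries held 74 reads in all, in culture 2 47 and in culture 3 11, and 5, 8 and 14 of them were listed at 0. Over the whole table, too, fewer genes had a read in culture 3 (24503) than in cultures 1 and 2 (28310 and 28395). Whether the ligand reads differ beyond that was not tested. A count of 0 allows up to 3 reads, a limit that covers counting error only. For the entries listed at 0 this is 0.085 to 0.106 RPKM in culture 1 and 0.0090 to 0.085 in culture 3. The most reads in an entry were 25, in culture 1, for IFN-DELTA-8 (0.075 RPKM). IFNB1, the beta interferon, had 0.103, 0.029 and 0 RPKM, IFNG, the gamma interferon, 0.023, 0.075 and 0.018, and IFN-DELTA-9 the highest single value, 0.139 RPKM in culture 1, from 4 reads. The entries of highest mean were IFN-DELTA-6 (0.069, 0.087 and 0 RPKM), IFNK (0.092, 0 and 0.049) and IFN-DELTA-9, while IFN-DELTA-8, IFNB1 and IFNG were named after their values were seen. IFN-DELTA-6 lies wholly within an unnamed entry with 1143 reads against its 5, and IFNK within MOB3B with 350 against 5. IFNB1 lies within another unnamed entry with 9 reads against 4. The part of those entries in the ligand reads was not tested.

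**Figure D3:**
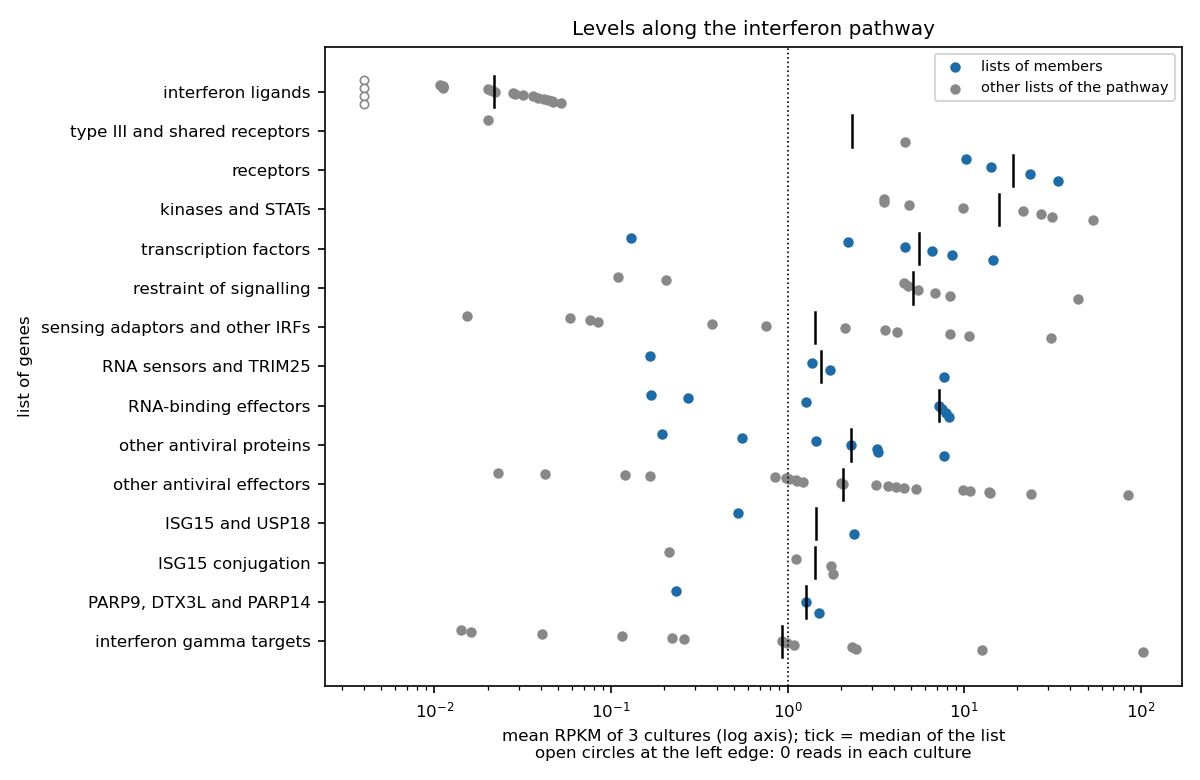
Mean RPKM over 3 cultures of each gene (log axis) in lists ordered from ligand to target, with the lists of members in blue, other pathway lists in grey and a tick at the median of each list. Open circles at the left edge are ligands with 0 reads in each culture. The ligands end at 0.052 RPKM, and the kinases and STATs start at 3.51 RPKM.

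The kinases and STATs that carry the signal were all expressed. Each of the 8 listed lay above 1 RPKM in limma, where 30.6% of all genes did. Their means ran from JAK2 at 3.51 ± 1.02 to JAK1 at 53.8 ± 6.18 RPKM (SD, n = 3 each). STAT3, which serves interleukin 6 type cytokines above all, had 31.6 ± 3.94 RPKM, STAT6 27.2 ± 0.284, TYK2 9.91 ± 2.08, STAT5B 4.86 ± 0.751 and STAT5A 3.53 ± 0.435. JAK1 exceeded TYK2 by 4.81-fold to 5.88-fold and JAK2 by 12.7-fold to 19.4-fold.

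Among the transcription factors that are members, STAT2 was highest and IRF7 lowest. STAT2 had 15.7, 13.8 and 14.0 RPKM in cultures 1, 2 and 3, highest in culture 1 except with median-of-ratios size factors, a mean of 14.5 ± 1.04 (SD, n = 3). Its partner IRF9 had 2.23, 2.04 and 2.33 RPKM, so STAT2 exceeded it by 6.03-fold to 7.04-fold. The IRF9 entry shares 99.9% of its span with REC8 and the STAT2 entry 86.9% with PAN2. The part of those entries in this ratio was not tested. IRF3, which is made without stimulus and is activated by RNA and DNA sensors, had 6.40, 7.11 and 6.16 RPKM, a range of 1.15-fold between cultures. IRF7, which interferon induces and which amplifies interferon alpha production, had 0.146, 0.134 and 0.111 RPKM, from 20, 22 and 19 reads. It lay below 1 RPKM (limma, adjusted p = 4.6e-11, below in 3 of 3 cultures), and IRF3 exceeded it by 43.7-fold to 55.4-fold.

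IRF1 and IRF2 act on overlapping DNA sites, IRF1 mainly as an activator and IRF2 mainly as a repressor. IRF1 had 3.81, 10.1 and 11.9 RPKM in cultures 1, 2 and 3, and IRF2 had 3.83, 4.58 and 5.42. The ratio of IRF1 to IRF2 was therefore 0.994 in culture 1 and 2.20 and 2.19 in cultures 2 and 3. IRF1 lies wholly within the span of an entry that the gene ID table names RAD50, which had 5.10, 9.22 and 10.1 RPKM and 2.87 times as many reads, also lowest in culture 1. The part of that entry's reads in the IRF1 values was not tested.

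The cytosolic RNA sensors were low, while TRIM25, a ubiquitin ligase reported to act on RIG-I, was expressed well. TRIM25 had 7.07, 8.11 and 7.95 RPKM, a mean of 7.71 ± 0.563 (SD, n = 3). DDX58 (RIG-I, which senses short double-stranded RNA and RNA with a triphosphate end) had 1.05, 1.60 and 1.47 RPKM, and IFIH1 (MDA5, which senses long double-stranded RNA) had 1.19, 1.53 and 2.48. Neither could be placed above or below 1 RPKM (limma, adjusted p = 0.24 and 0.051), although all 6 values exceeded it. IFIH1 lay above 1 RPKM in limma with pseudocounts of 0.1 and 1 RPKM (adjusted p = 0.025 and 0.029), protein-coding scaling (0.029), voom weights (0.0063) and without culture 1 (0.012), and its adjusted p over all alternatives was 0.0063 to 0.44. DHX58 (LGP2), the third sensor of the family, had 0.163, 0.173 and 0.166 RPKM, a range of 1.06-fold from 25, 32 and 32 reads that became 1.23-fold on the base of protein-coding reads and 1.33-fold when scaled by median-of-ratios. It lay below 1 RPKM (limma, adjusted p = 3.6e-09).

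Among the adaptors and kinases that act with these sensors, levels differed widely. TBK1, the kinase that activates IRF3, had 22.6, 35.4 and 34.9 RPKM but overlaps XPOT, which had 1.09 times as many reads, and MYD88, the adaptor of Toll-like receptors, had 10.6 ± 0.205. IRF8, known from blood cells, had 8.32 ± 2.38 RPKM, and its span overlaps COX4I1 with 1.23 times as many reads. MAVS, the mitochondrial adaptor of RIG-I and MDA5, had 4.16 ± 0.726 RPKM. The DNA-sensing pair was low, with STING1 at 0.076 ± 0.049 and CGAS at 0.373 ± 0.240 RPKM (SD, n = 3 each). CGAS shares 5239 bases with EEF1A1, which held 2580168 reads against 383. Of the 12 measured genes of this list 6 lay above 1 RPKM in limma, where 30.6% of all genes did. Below it lay 5, where 60.8% of all genes did, and ZBP1 was not decided. MAVS and STING1 were named after their values were seen, as were CGAS and ZBP1.

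The effectors that act on viral RNA split into a group near 8 RPKM and a group at or below about 1 RPKM. OAS2, which makes oligoadenylates on sensing double-stranded RNA, had 6.09, 9.53 and 8.95 RPKM. IFIT5, which binds RNA with a triphosphate end, had 6.09, 9.85 and 7.66 RPKM, ADAR, which edits double-stranded RNA, 6.64, 8.60 and 7.34, and EIF2AK2 (PKR), the kinase that stops translation on sensing double-stranded RNA, 4.55, 9.15 and 7.79. These 4 were lowest in culture 1 and highest in culture 2 in the deposited RPKM, but highest in culture 3 with median-of-ratios size factors, and lay above 1 RPKM (limma, largest adjusted p = 2.0e-10, for EIF2AK2). ADAR and EIF2AK2 have roles and expression in unstimulated cells as well.

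The remaining IFIT and OAS entries were low. IFIT1 had 0.948, 1.53 and 1.32 RPKM (limma, adjusted p = 0.40, not decided), and IFIT5 exceeded it by 5.82-fold to 6.43-fold. IFIT2 had 0.143, 0.618 and 0.062 RPKM, the widest range of any member. Its 26, 135 and 14 reads give exact 95% Poisson intervals of 0.093 to 0.210, 0.518 to 0.732 and 0.034 to 0.103 RPKM, so culture 2 lay above the others by more than counting error. OAS1 had 0.096, 0.271 and 0.138 RPKM from 5, 17 and 9 reads, and its intervals of 0.031 to 0.224, 0.158 to 0.435 and 0.063 to 0.262 overlap. IFIT2 and OAS1 lay below 1 RPKM in limma (adjusted p = 1.2e-05 and 4.1e-09).

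The gene models of these families do not all follow single genes. The entry named IFIT1 runs from 101214710 to 101249501 on chromosome 14, and in the RefSeq annotation of the same assembly, Sscrofa11.1, that span holds IFIT3 (101214730 to 101225169) as well as IFIT1 (101237403 to 101249486), so its reads may come from either. The span named OAS2 (chromosome 14, 38827660 to 38860820) holds all of RefSeq OAS2 and 59.6% of the RefSeq OAS1 span, while the entry named OAS1 covers 45.8% of that span. The low value of the OAS1 entry is therefore no measure of OAS1 as a whole. For the entry named IFIT5 RefSeq gives a locus without that symbol at 101254818 to 101266105.

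MX1 and MX2, dynamin-like GTPases that block the replication of many viruses, lie within 70.3 kb of chromosome 13 and differed in level. MX1 had 1.80, 4.98 and 2.97 RPKM in cultures 1, 2 and 3, highest in culture 2, and lay above 1 RPKM (limma, adjusted p = 5.7e-05). MX2 had 0.346, 0.612 and 0.710 RPKM and lay below it (limma, adjusted p = 0.030). That call did not hold when culture 1 was left out (limma, adjusted p = 0.11), when culture 2 was (0.10) or with the prior fitted without robust (0.057). MX1 exceeded MX2 by 5.21-fold, 8.13-fold and 4.18-fold. RSAD2 (viperin), an enzyme that makes a chain-terminating nucleotide, had 0.149, 0.277 and 0.161 RPKM, from 37, 83 and 50 reads, and lay below 1 RPKM (limma, adjusted p = 4.1e-08). Its chromosome neighbour CMPK2, which is often induced with it, had 0.166 ± 0.089 RPKM and was named after its value was seen.

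Further antiviral members had narrower ranges between cultures than MX1, MX2 and RSAD2 in the deposited RPKM. With protein-coding reads as the base, the ranges were 1.47-fold for IFI35, 1.57-fold for IFI44, 1.61-fold for IFI44L and 1.12-fold for IFI6. On that base MX1 had 2.19-fold, MX2 1.63-fold and RSAD2 1.73-fold. IFI35, which partners with NMI, had 8.23, 7.80 and 7.06 RPKM, a range of 1.17-fold, highest in culture 1 except with median-of-ratios size factors. IFI44L had 3.59, 2.80 and 3.22 RPKM and IFI44 1.62, 1.45 and 1.30, with a ratio of 1.93 to 2.48 between these neighbours, which lie within 67.8 kb of chromosome 6. IFI44 was not decided (limma, adjusted p = 0.15), although all 3 values exceeded 1 RPKM. IFI6, a membrane protein that protects cells from flavivirus replication and was found by gene ID, had 1.83, 2.47 and 2.60 RPKM and lay above 1 RPKM (limma, adjusted p = 0.0014).

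ISG15, a ubiquitin-like protein that is joined to other proteins in the interferon response, had 0.334, 0.329 and 0.900 RPKM (ENSSSCG00000040575, chromosome 6, 63363173 to 63364208). These rest on 11, 13 and 37 reads, with exact 95% Poisson intervals of 0.167 to 0.598, 0.175 to 0.562 and 0.633 to 1.24 RPKM. In the deposited RPKM culture 3 thus lay above both others by more than counting error. The gap to culture 1 was narrow, and the intervals were not computed under the other scalings. It lay below 1 RPKM (limma, adjusted p = 0.013), which did not hold when culture 1 was left out (limma, adjusted p = 0.069), when culture 2 was (0.19), with voom weights (0.067) or with a prior without trend (0.053). USP18, the protease that removes ISG15 and also restrains IFNAR2 signalling, had 2.08, 3.06 and 2.03 RPKM and exceeded ISG15 by 6.21-fold, 9.30-fold and 2.26-fold. Of the 4 genes for joining ISG15 to proteins, UBE2L6 (1.81 ± 0.857 RPKM) and HERC6 (1.76 ± 0.410) lay above 1 RPKM, the activating enzyme UBA7 (1.11 ± 0.323, overlapping TRAIP with 1.44 times as many reads) was not decided, and the ligase HERC5 (0.214 ± 0.117) lay below.

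PARP9 and DTX3L form a complex that modifies histones and other proteins in the interferon response, and their genes are adjacent on chromosome 13, where the DTX3L entry ends at 137961343 and the PARP9 entry starts at 137961357. DTX3L had 1.44, 1.79 and 1.29 RPKM and PARP9 1.22, 1.45 and 1.16, with a nearly constant ratio of 1.11 to 1.23. Neither was decided against 1 RPKM (limma, adjusted p = 0.12 and 0.35), with values above it in 3 of 3 cultures. PARP14, another ADP-ribosyltransferase in the same 193 kb, had 0.102, 0.478 and 0.119 RPKM from 31, 174 and 45 reads. Its level in culture 2, with a counting interval of 0.410 to 0.555 RPKM, stood apart from the others, and it lay below 1 RPKM (limma, adjusted p = 5.5e-07).

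Of the 31 members, 15 overlap another entry with reads, and in 9 of these the other entry held at least as many reads. Without a strand setting, which is not given in the sources used here, reads from 2 genes at the same place cannot be told apart. DDX58 shares 99.8% of its span with TOPORS (4.82, 5.30 and 6.07 RPKM), and RefSeq places all of TOPORS (33865967 to 33878135 on chromosome 10) but 49.4% of DDX58 inside the entry named DDX58. IRF9 shares 99.9% of its span with REC8, and their reads ran nearly level at 483, 531 and 631 for IRF9 and 464, 535 and 631 for REC8, although RefSeq ends REC8 at 75127759 and starts IRF9 at 75133800 on chromosome 7. STAT2 overlaps PAN2 over 86.9% of its span, and PAN2 had 1.12 times as many reads (9.27, 11.7 and 12.5 RPKM). IFIT1 and IFIT2 lie within LIPA, which had 12.1, 5.06 and 4.94 RPKM. PARP9 shares 77.5% of its span with KPNA1 (12.1, 10.9 and 9.95 RPKM). The part of these overlapping entries in the members' values was not tested. The overlaps of IRF7 with PHRF1 and of PARP14 with HSPBAP1 are 88 and 25 bases long. Among the 16 members that overlap no other entry with reads, 9 lay above and 4 below 1 RPKM, where of all 17762 such genes 26.6% lay above and 66.3% below.

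**Figure D4:**
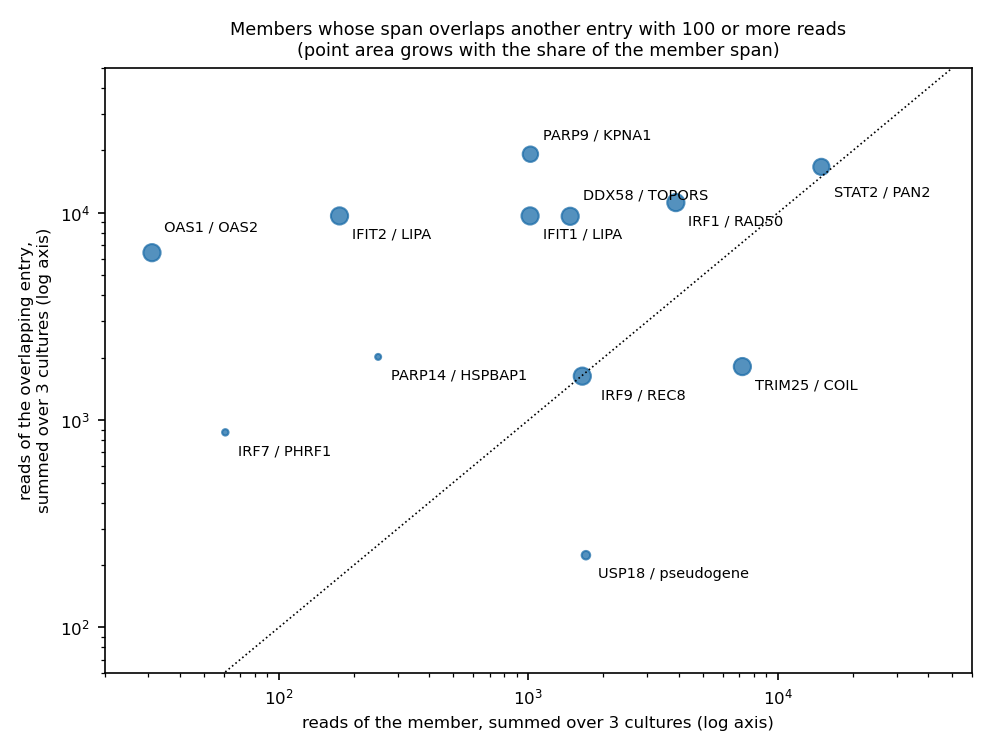
Reads of members against reads of the entry they overlap, each summed over 3 cultures (log axes), for overlapping entries with 100 or more reads, with a dotted line of equal reads and point area by the share of the member's span. IRF9 with REC8 sits on the line, STAT2 with PAN2 close to it, and OAS1 lies farthest above it.

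Most of the genes that restrain the pathway were expressed. Of 8 listed genes 6 lay above 1 RPKM in limma, where 30.6% of all genes did. PTPN11 (SHP2), a phosphatase of many receptors, had 43.9 ± 11.6 RPKM (SD, n = 3), PTPN1 8.27 ± 2.10, PIAS1 6.85 ± 0.521, SOCS3 5.50 ± 1.24, PTPN2 4.83 ± 0.819 and PIAS4 4.56 ± 0.482. SOCS3 overlaps TK1, which held 0.351 times as many reads. SOCS1, which interferon gamma induces, had 0.204 ± 0.073 RPKM, and PTPN6, mainly of blood cells, 0.110 ± 0.058, and both lay below. PTPN6 overlaps the more abundant ATN1 and ENO2.

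Other antiviral effectors had means from 0.023 to 85.1 RPKM, past those of the members at both ends. Of 23 measured, 13 lay above 1 RPKM in limma, where 30.6% of all genes did. Below it lay 4, where 60.8% of all genes did, and 6 were not decided. IFITM3, a membrane protein that blocks virus entry, was highest at 123, 82.7 and 49.3 RPKM in cultures 1, 2 and 3, and so was highest in the culture in which most members were lowest. LAP3 had 23.9 ± 5.52 and TRIM22 14.1 ± 1.27 RPKM (SD, n = 3 each). Among 13 targets of interferon gamma, 4 lay above 1 RPKM, where 30.6% of all genes did. Below it lay 6, where 60.8% of all genes did, and 3 were not decided. WARS1, a tRNA synthetase with housekeeping duty, had 103 ± 28.8 RPKM, TAP1, the peptide transporter of antigen presentation, 12.6 ± 2.54 and PSMB8 2.45 ± 0.646, the last overlapping TAP1. The chemokines CXCL9, CXCL10 and CXCL11, named after their values were seen, had 0.016 ± 0.014, 0.223 ± 0.154 and 0.014 ± 0.015 RPKM.

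The members varied between cultures by amounts that differed from gene to gene. In the deposited RPKM the median range from the lowest to the highest culture was 1.51-fold, with 14 members under 1.5-fold and 9 over 2-fold. The same was not computed over all genes, so these counts do not tell whether members varied more or less than other genes. With protein-coding reads as the base the range of EIF2AK2 went from 2.01-fold to 1.60-fold and that of STAT2 from 1.14-fold to 1.43-fold. The variance between cultures was set against limma's trended prior variance by an F test over the 10474 genes whose mean reached 1 RPKM, 23 members among them. No member passed after Benjamini-Hochberg adjustment, where 0% of all genes did, so with 2 residual degrees of freedom the test says nothing of how stable a member was. The 8 members under 1 RPKM, with IFIT2 and PARP14 among them, were outside this test. At an unadjusted p below 0.05 there was 1 of 23, IRF1 (limma, adjusted p = 0.84), where 5.93% of all genes were. The unadjusted count was also 1 with voom weights, but 0 with a pseudocount of 1 RPKM, with protein-coding reads as the base, with either other prior, and without culture 1 or 3.

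**Figure D5:**
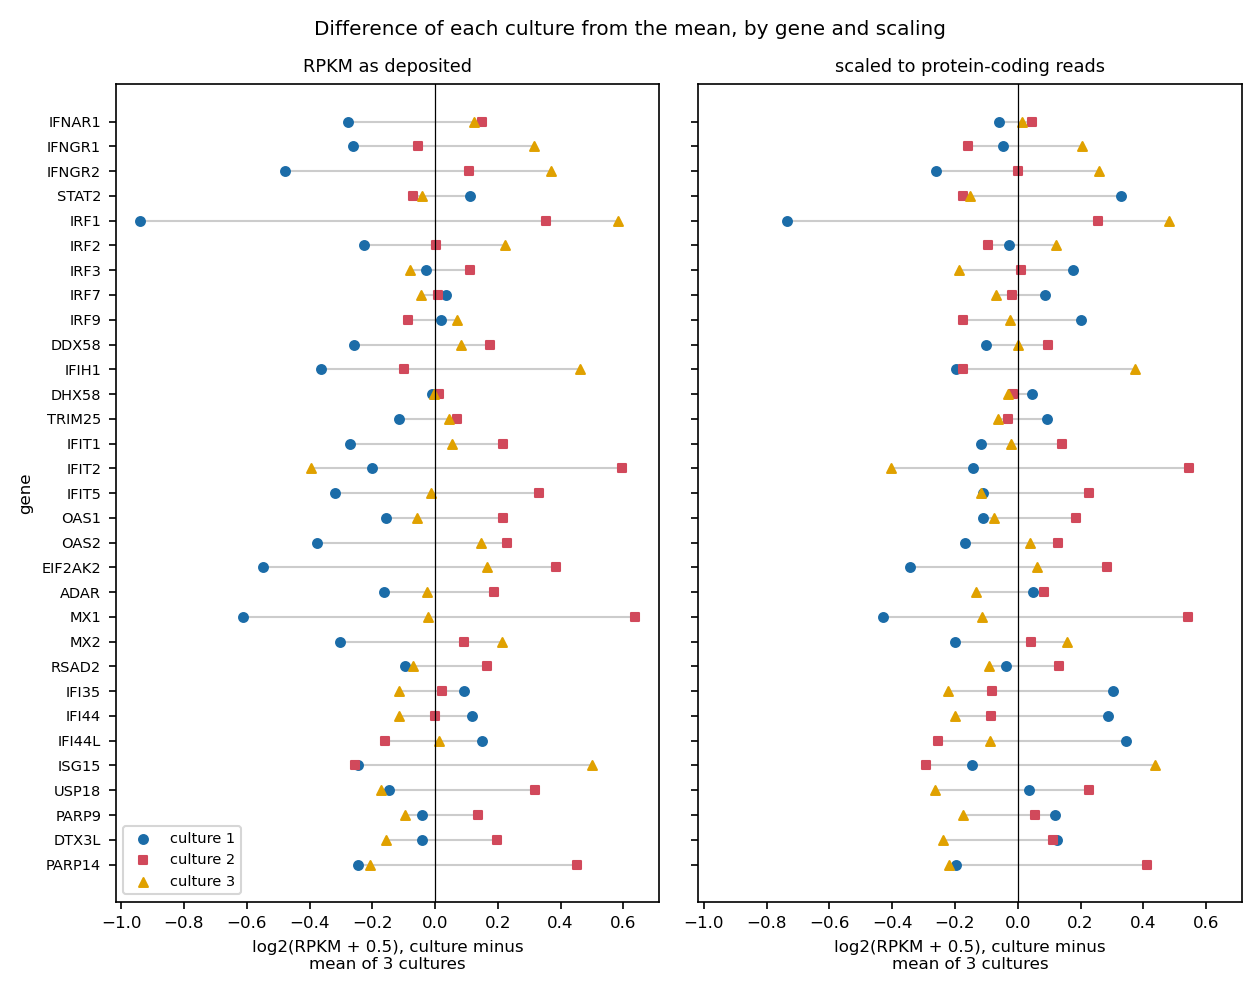
Difference of each culture from the mean of the 3, as log2(RPKM + 0.5), for each member in the deposited RPKM (left) and scaled to protein-coding reads (right). Culture 1 is the lowest for 19 of 31 members on the left and for 11 on the right.

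Most members were lowest in culture 1 and highest in culture 2, and so were most genes. Of these 23 members 14 were lowest in culture 1, where 57% of all such genes were, and 13 were highest in culture 2, where 54.4% were. The median of all such genes lay 0.34 higher on the log2(RPKM + 0.5) scale in culture 2 than in culture 1, and the median of the 31 members 0.27 higher. The order also changed with the scaling, for members and for all such genes. With protein-coding reads as the base 9 of the 23 were lowest in culture 1, where 34.6% of all such genes were. On that base 9 were highest in culture 2, where 40.8% were. With median-of-ratios size factors 15 were lowest in culture 1, where 55.0% of all such genes were, and 3 highest in culture 2, where 17.1% were. The median gene lay -0.16, 0.17 and -0.01 from its mean over cultures in the deposited RPKM (log2, cultures 1, 2 and 3), 0.03, 0.07 and -0.11 with protein-coding reads and -0.16, -0.05 and 0.20 with median-of-ratios.

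Some members kept their highest culture under all 3 scalings. Culture 2 was highest under each for MX1 and USP18 among the 23 members, where 16% of all such genes were, and for IFIT2, OAS1, RSAD2 and PARP14 among the 8 members under 1 RPKM, where 25.3% of genes with a mean of 0.1 to 1 RPKM were. Culture 3 was highest under each for 5 of the 23, IFNGR1, IFNGR2, IRF1, IRF2 and IFIH1, where 17% of genes were, and for MX2 and ISG15 of the 8, where 22.4% were. ISG15 and USP18 thus peaked in different cultures, as did IFIT2 and MX2. In the deposited RPKM the exact 95% Poisson intervals of MX2 overlap between culture 2 (0.541 to 0.689) and culture 3 (0.635 to 0.791). Those of OAS1 overlap as well, so neither peak exceeds counting error. The counts of members per highest culture are small and were not tested.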

How the data were processed

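RNA of 3 pig adipose MSC cultures was sequenced from 0.5 µg of total RNA in TruSeq V2 libraries, per the labels' protocols. The deposited values are RPKM per Ensembl gene on susScr11, per the file headers and the submitters' processing notes. The aligner, the counter, the annotation release and whether strand was used in counting were not given in the sources used here. RPKM times the listed length plus 1 base gave whole reads for 100% of values within 1e-06 of a read, which gave the read counts and the Poisson intervals; intervals and floors cover counting error only. Gene names are those of the table, or of a table of Ensembl IDs where it has none.

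The tests used log2(RPKM + 0.5), a scale on which low genes differ less than in RPKM, and limma 3.58.1 under R 4.3.3, with Benjamini-Hochberg adjustment over all genes tested (genome-wide) and a threshold of 0.05. The level test took genes with at least 1 read, the spread test those whose mean reached 1 RPKM (variance between cultures over limma's trended prior, F test). Both were also run on simulated data. The spreads planted there were wider than that of any member, so that run does not show what the spread test can detect here. Alternatives were other pseudocounts, filters, scalings, weights, priors and levels, and each culture left out. The members, lists and tests were chosen with earlier results of these data known. Each member is named. In other lists the 3 genes of highest mean are named, and every gene in lists of up to 8, except for items that are not reported here.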

Additional observations from a re-analysis of the deposited data

How the results depend on the processing

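The count of members above 1 RPKM (17) was 17 to 20 and that below (8) 6 to 8 under other pseudocounts, filters, scalings, weights, priors and with each culture left out. Without a culture they ranged from 17 to 18 above and from 6 to 8 below, and the spread count was 0 throughout. Leaving out the members that overlap another entry with reads gave 9 above and 4 below, by construction over fewer members. Against a level of 5 RPKM 9 members lay above, where 15.3% of all genes did, and 18 below, where 75.4% did. Against 0.5 RPKM 23 lay above (35.3% of all genes) and 6 below (55.9%), and against 2 RPKM 14 above (24.7%) and 8 below (66.3%). Over single members 357 values kept their call, 8 gained it and 7 lost it, and none reversed. The changes concerned IFIH1 (5 settings, gained), ISG15 (4, lost), MX2 (3, lost), and DTX3L, PARP9 and IFI44 (1 each, gained with a prior without trend); the cause was not tested. The prior fitted without robust, an alternative chosen after seeing the data, gave 17 above and 7 below. The size of the adjusted p-values in limma moved with the prior, for STAT2 from 7.9e-15 to 0.00013 with a prior without trend. Levels other than 1 RPKM were not run for single members. No paired analysis was possible because there is a single group. Members with few reads, such as OAS1 with 5, 17 and 9, are limited by depth.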
